A study of Mus musculus with 2 samples.

Results

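The 10 genes described here encode myosin light chains (Myl1, Myl2, Myl3, Myl4, Myl6, Myl6b, Myl9 and Mylpf) and the kinases Mylk2 and Mylk4 that belong to the light chain kinase family. They were listed by symbol and not by a cut on any measured value, although earlier results of these data were known when they were chosen. All 10 were found among the 55536 annotated genes of the tables. Their levels were measured by sequencing of total RNA from the gastrocnemius, a calf muscle made mostly of fast fibres. The mice were B6CASTF1/J females, first-cross hybrids of C57BL/6J and CAST/EiJ, taken at 14 days of age, and carried no allele or treatment that the labels name. There was 1 group of 2 libraries, called biological replicates 1 and 2 and each made from 300 ng of RNA, so no condition was contrasted and no test between conditions was possible. Each library is described as 3 females, but the tissue text of replicate 2 names a female in the singular and both carry 1 donor label, so whether animals were pooled is not settled by the labels. Any spread between the libraries may therefore be technical as well as between animals.

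A myosin molecule has a pair of heavy chains, and the neck of each heavy chain carries 1 essential and 1 regulatory light chain. The essential chain stiffens the lever arm, while the regulatory chain can be phosphorylated by a calmodulin-dependent kinase, which in skeletal muscle raises the calcium sensitivity of force. Fast fibres use Mylpf as regulatory chain and Myl1 as essential chain. Slow fibres share Myl2 and Myl3 with the heart ventricle. Myl4 is the essential chain of the embryonic muscle and of the atrium, Myl6 and Myl9 serve smooth muscle and non-muscle cells, and Myl6b was described in human slow muscle and non-muscle cells.

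The coding starts of the chains are printed because the transcript shares below turn on them. Sequences are from the GENCODE M21 transcripts on mm10, 5′ to 3′, and each span given includes introns. Myl1, on the minus strand of chromosome 1 (chr1:66924295-66945404), is known for a pair of promoters. The long transcript Myl1-201 starts 9789 bases upstream of the short transcript Myl1-202, and its 142 own coding bases, against 28 in the short transcript, encode an extended amino terminus. Both then run into the same 422 coding bases. In the next lines the own coding bases are in lower case and the first 15 shared bases in capitals, and the spans are chr1:66930315-66944905 for the long and chr1:66930315-66935278 for the short transcript.
Myl1-201: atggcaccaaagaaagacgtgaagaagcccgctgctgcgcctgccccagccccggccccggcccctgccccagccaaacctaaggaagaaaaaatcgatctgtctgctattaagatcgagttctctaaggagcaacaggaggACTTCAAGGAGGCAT
Myl1-202: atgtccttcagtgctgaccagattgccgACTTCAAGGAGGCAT

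The regulatory chains are shown by their first 75 coding bases, with the codon of the serine that precedes asparagine, valine and phenylalanine, the known kinase site, in capitals. It is codon 16 of Mylpf-201 (chr7:127211761-127212932, plus strand), codon 15 of Myl2-201 (chr5:122101027-122101820, plus strand) and codon 20 of Myl9-201 (chr2:156778545-156778619, plus strand), counted from 1 at the start codon. Mylpf-206 (chr7:127212918-127213203) has an annotated start codon 60 bases further in. Its annotated coding part is therefore 20 codons shorter and lacks the serine codon, although the transcript itself holds it before the annotated start.
Mylpf-201: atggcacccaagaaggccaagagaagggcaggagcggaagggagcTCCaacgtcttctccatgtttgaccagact
Mylpf-206: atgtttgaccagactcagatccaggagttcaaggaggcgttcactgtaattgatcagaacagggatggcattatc
Myl2-201: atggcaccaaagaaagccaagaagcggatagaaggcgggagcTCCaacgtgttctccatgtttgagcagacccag
Myl9-201: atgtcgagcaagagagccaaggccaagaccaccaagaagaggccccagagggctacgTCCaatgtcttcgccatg

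The main Myl6 transcripts, Myl6-201 and Myl6-206, differ in their last 26 coding bases, shown in capitals after 15 shared bases (chr10:128491008-128492073 and chr10:128491739-128492073, minus strand).
Myl6-201: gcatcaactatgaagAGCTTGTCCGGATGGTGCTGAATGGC
Myl6-206: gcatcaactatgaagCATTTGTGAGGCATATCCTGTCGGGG
In global alignments of coding sequence, with gapped positions left out, Mylpf-201 was 76.8% identical to Myl2-201 and 76.3% to Myl9-201. Myl1-201 was 78.9% identical to Myl3-201, and Myl6-201 was 83.8% identical to Myl6b-201, the closest of the essential chains compared.

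Replicate 2 held 42423031 expected counts and replicate 1 held 35877882, an expected count being an estimate that divides ambiguous reads among features. The 10 genes took 1.98% of the annotated counts in replicate 2 and 1.89% in replicate 1. They held 8.94% and 8.65% of the nuclear coding TPM in replicates 2 and 1, where TPM is a level that takes transcript length and library depth into account. The tissue label was checked against markers. All 9 fast fibre genes and all 8 slow fibre genes listed had at least 1 TPM in both libraries. None of the 7 listed heart genes did, and Nppa, Nppb, Nkx2-5 and the atrial light chain Myl7 were at 0 counts, which allows up to 3 counts each. In bulk tissue, fewer cells of a type and less RNA per cell cannot be told apart.

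Among regulatory chains the fast gene dominated. Mylpf (chr7:127208890-127214298, plus strand) stood at 28385 TPM in replicate 2 and 25896 TPM in replicate 1, a mean of 27141 ± 1760 TPM (SD, n = 2). Myl2, the slow and ventricular chain (chr5:122100951-122113472, plus strand), stood at 619.99 TPM in replicate 2 and 369.9 TPM in replicate 1. Mylpf thus exceeded Myl2 by 45.8-fold in replicate 2 and 70.0-fold in replicate 1, a log2 ratio of 5.82 ± 0.43 (SD, n = 2), far outside the spread between the libraries. Myl9, the smooth muscle chain (chr2:156775420-156781658, plus strand), had 109.05 TPM in replicate 2 and 57.98 TPM in replicate 1. Of the other regulatory chains, Myl12a, a widely expressed non-muscle chain, had 289.8 and 245.5 TPM in replicates 2 and 1, and Myl12b, its close relative, 65.6 and 56.1 TPM. Myl10 had 2.93 and 3.3 TPM. Over these 6 genes and Myl7, at 0, Mylpf made up 96.3% of the TPM in replicate 2 and 97.2% in replicate 1, 96.8 ± 0.66% on average (SD, n = 2).

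The essential chains showed the same order of fast over slow. Myl1 had 15005 TPM in replicate 2 and 14276 TPM in replicate 1, a mean of 14640 ± 516 TPM (SD, n = 2). Myl3, the slow and ventricular chain (chr9:110741861-110769798, plus strand), had 337.02 TPM in replicate 2 and 212.68 TPM in replicate 1. Myl1 exceeded Myl3 by 44.5-fold in replicate 2 and 67.1-fold in replicate 1, a log2 ratio of 5.77 ± 0.42 (SD, n = 2), close in size to that of the regulatory pair in each library. In the direct quantification the pairs were less alike, with Mylpf 27.3-fold above Myl2 in replicate 2 and 47.7-fold in replicate 1, and Myl1 47.2-fold above Myl3 in replicate 2 and 72.5-fold in replicate 1. Myl6 (chr10:128490860-128494145, minus strand) had 134.33 TPM in replicate 2 and 93.33 TPM in replicate 1. Myl6b, which lies next to Myl6 on the same strand (chr10:128494157-128498685), had 87.74 TPM in replicate 2 and 30.64 TPM in replicate 1, the widest gap between the libraries among the 10 genes. Myl4, the embryonic and atrial chain (chr11:104550663-104595753, plus strand), was the lowest of the 10, at 7.66 TPM in replicate 2 and 5.43 TPM in replicate 1 from 174 and 106 counts. Myl1 made up 96.4% of the essential chain TPM in replicate 2 and 97.7% in replicate 1, 97.0 ± 0.92% on average (SD, n = 2).

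The chain classes were set side by side in TPM, which is corrected for length but depends on which transcripts the reads are given to. Mylpf and Myl2 together reached 29005 TPM in replicate 2 and 26266 TPM in replicate 1. Myl1, Myl3 and Myl4 together reached 15350 and 14494 TPM, and the 10 sarcomeric heavy chain genes 15725 and 15498 TPM in replicates 2 and 1. The essential chains therefore lay near the heavy chains, at a ratio of 0.976 in replicate 2 and 0.935 in replicate 1, while the regulatory chains were 1.84 and 1.69 times the heavy chains. In the direct quantification, a second set of deposited values estimated straight from the reads, these ratios were higher, at 1.46 and 1.38 for the essential and 2.42 and 2.23 for the regulatory chains in replicates 2 and 1. The regulatory chains were above the essential chains in both quantifications, but the distance to the heavy chains depended on which was used. In the gene tables, 9733 TPM of Mylpf in replicate 2 and 8469 TPM in replicate 1 lay on Mylpf-203. That is a 285-base transcript classed as retained intron, with 0 TPM in the direct quantification. Most of its bases lie in the last exons of Mylpf-201. In counts not divided by length, the regulatory chains were 1.07 and 1.04 times the essential chains in replicates 2 and 1.

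**Figure D1:**
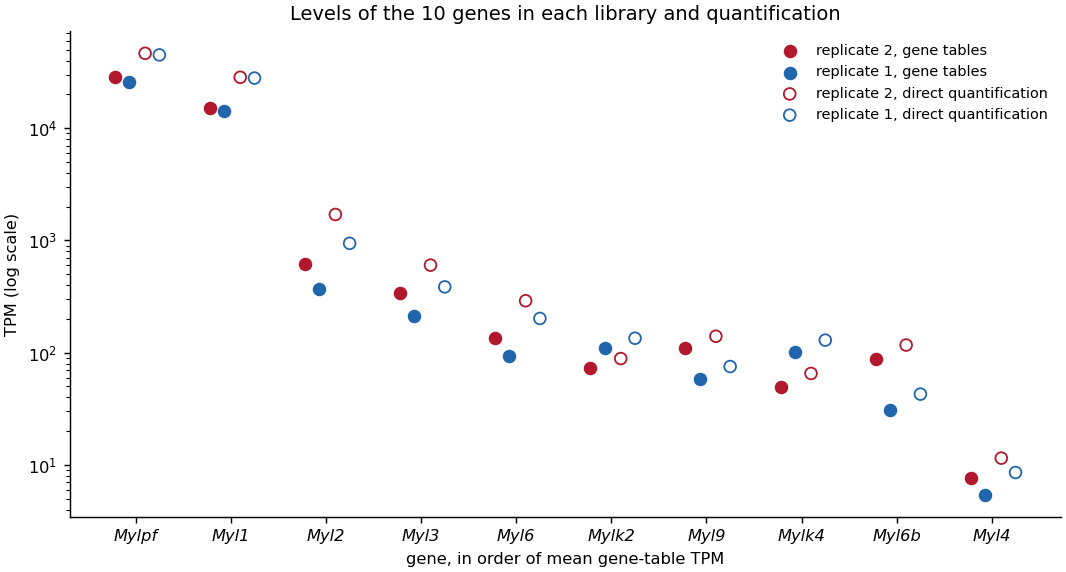
TPM on a log axis (y) of each of the 10 genes (x), with filled points for the gene tables and open points for the direct quantification, replicate 2 in red and replicate 1 in blue. Mylpf and Myl1 lie far above the rest in each library and quantification, and Myl4 lies lowest at 7.66 TPM in replicate 2 and 5.43 TPM in replicate 1.

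The kinases were far below their substrate and close to each other. Mylk2 (chr2:152911352-152923068, plus strand), the skeletal muscle light chain kinase, had 73.3 TPM in replicate 2 and 109.68 TPM in replicate 1. Mylk4 (chr13:32700834-32783954, minus strand), a related kinase that is less studied, had 49.61 TPM in replicate 2 and 102.22 TPM in replicate 1. Both kinases were lower in replicate 2, and their ranges overlapped. Mylk2 was 1.48-fold above Mylk4 in replicate 2 and 1.07-fold in replicate 1, a log2 ratio of 0.33 ± 0.33 (SD, n = 2), so their difference was about as large as the spread between the libraries, although Mylk2 was the higher in both. Mylk, the smooth muscle kinase, had 15.02 TPM in replicate 2 and 14.01 TPM in replicate 1. Mylk3, the cardiac kinase, had 0.84 and 0.46 TPM in replicates 2 and 1, from 56 and 30 counts. By TPM, Mylpf exceeded Mylk2 by 387-fold in replicate 2 and 236-fold in replicate 1 in the gene tables. In the direct quantification it did so by 524-fold and 334-fold.

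In the order of mean TPM, Mylpf, Myl1, Myl2, Myl3 and Myl6 followed each other with no overlap between neighbours across the libraries. Myl6, Mylk2, Myl9, Mylk4 and Myl6b came next, and each neighbouring pair among these 5 overlapped, so their order is not settled by these values. In the direct quantification Myl6 lay above Mylk2 in both libraries, at 289.99 TPM in replicate 2 and 201.7 TPM in replicate 1 against 88.6 and 134.4 TPM of Mylk2, with no overlap. Myl4 lay clear below Myl6b. Among nuclear protein-coding genes ranked by mean TPM, Myl2 stood at rank 90, between Actb, cytoplasmic beta-actin, at 608.22 and 383.31 TPM in replicates 2 and 1 and Cryab, a small heat shock protein, at 482.3 and 504.99 TPM. Myl3, at rank 199, stood just above Rps9, a ribosomal protein, at 296.33 and 250.03 TPM. Mylk2, at rank 601, had Hspa5, an endoplasmic reticulum chaperone, above it at 100.93 and 82.26 TPM and Ubac1 below it at 94.35 and 88.38 TPM. Mylk4, at rank 719, had Eln, which encodes elastin, above it at 96.67 and 55.24 TPM and Hsbp1 below it at 79.81 and 72.0 TPM. Likeness to these genes is in mean level over 2 libraries alone.

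The libraries were compared gene by gene as the ratio of replicate 2 over replicate 1 of scaled counts, with a fold of at least 1.5 as the mark of a difference. Intervals are exact binomial (Clopper-Pearson) at 95% and cover counting error only, so they say nothing of the spread between animals. Of the 10 genes, 5 passed the mark. Myl2, Myl9 and Myl6b were higher in replicate 2, against 7.98% of 15734 genes tested, and Mylk2 and Mylk4 were higher in replicate 1, against 5.64% of genes. In either direction 13.6% of genes passed, and 4.94% of the 6322 genes with a summed count of at least 1000, a depth that all members except Myl4 reached. The median log2 ratio of the 10 genes was 0.34, beside 0.01 over all genes tested.

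Mylpf and Myl1, the fast chains, were nearly level between the libraries, with log2 ratios of -0.05 (interval -0.06 to -0.04) and -0.08 (interval -0.09 to -0.08), both slightly above 0 when total counts set the scale, at 0.08 and 0.05. The slow chains were both higher in replicate 2. Myl2 had 10106 counts in replicate 2 and 5175 in replicate 1, a log2 ratio of 0.60 (interval 0.55 to 0.64) or 1.51-fold, just past the mark. Myl3 had 9170 and 5013 counts, a log2 ratio of 0.50 (interval 0.45 to 0.55) or 1.42-fold, just short of it. Of the 8 slow fibre markers, 5 were past the mark and higher in replicate 2, among them the slow heavy chain Myh7, the highest of the list in TPM, at 528.12 and 287.84 TPM in replicates 2 and 1, while Myoz2 and Casq2 had log2 ratios of -0.16 and -0.14. The list summed to 1996 TPM in replicate 2 and 1235 TPM in replicate 1. None of the 9 fast fibre markers was past the mark, and that list summed to 61335 TPM in replicate 2 and 59612 TPM in replicate 1. The part of fibre makeup in the values of Myl2 and Myl3 was not tested.

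As a share of its class, Myl2 made up 2.14% of Mylpf plus Myl2 in replicate 2 and 1.41% in replicate 1. Myl3 made up 2.2% of Myl1 plus Myl3 in replicate 2 and 1.47% in replicate 1. Myh7 made up 3.36% of the 10 sarcomeric heavy chains in replicate 2 and 1.86% in replicate 1. All 3 slow shares were low and were higher in replicate 2, also in the direct quantification, where Myl2 made up 3.54% and 2.05%, Myl3 2.08% and 1.36%, and Myh7 2.22% and 1.2% in replicates 2 and 1. Myh7 was the highest of the 3 in the gene tables and Myl2 in the direct quantification, so the order of these shares depended on the quantification.

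**Figure D2:**
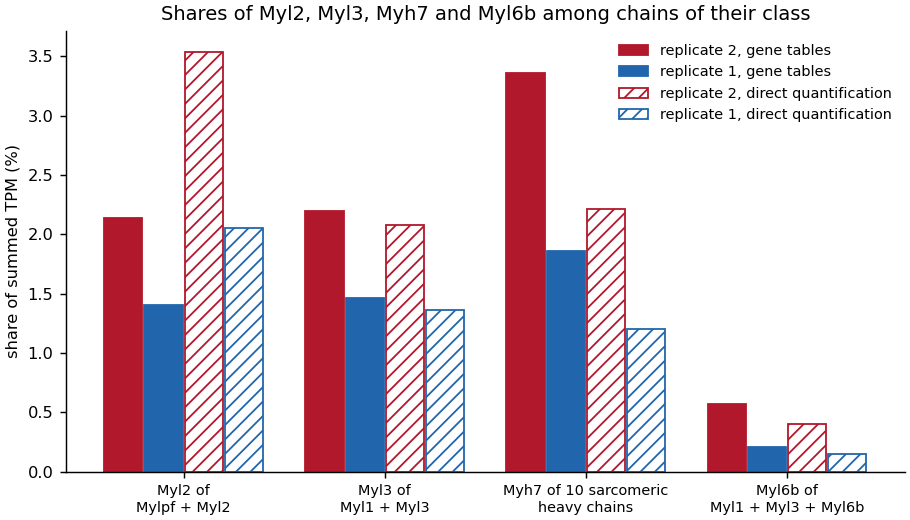
Share of summed TPM (y, %) of Myl2, Myl3, Myh7 and Myl6b within chains of their class (x). The sums are, in that order, Mylpf plus Myl2, Myl1 plus Myl3, the 10 sarcomeric heavy chains, and Myl1 plus Myl3 plus Myl6b. Myl4 and Myl6 are left out of the last sum. Filled bars are the gene tables and hatched bars the direct quantification, with replicate 2 in red and replicate 1 in blue. Each of the 4 shares is higher in replicate 2 than in replicate 1 in both quantifications, from 0.15% for Myl6b to 3.54% for Myl2.

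Myl6b differed most. It had 2647 counts in replicate 2 and 800 in replicate 1, a log2 ratio of 1.36 (interval 1.24 to 1.47) or 2.56-fold. Its neighbour Myl6 had 2702 and 1666 counts in replicates 2 and 1, a log2 ratio of 0.33 (interval 0.24 to 0.42), and did not pass the mark. Myl4 gave a log2 ratio of 0.34 with a wide interval of -0.01 to 0.71, so a difference was not detectable at this depth. Of the 5 developing fibre markers, Myh3, the embryonic heavy chain, was past the mark, at 23.97 and 13.59 TPM in replicates 2 and 1, and the list summed to 3764 TPM in replicate 2 and 3028 TPM in replicate 1. The Schwann cell markers, all 4 past the mark, summed to 672.6 TPM in replicate 2 and 254.5 TPM in replicate 1, with log2 ratios of scaled counts whose median was 1.18. Their part in the result for Myl6b was not tested.

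Myl9 had 3468 counts in replicate 2 and 1587 in replicate 1, a log2 ratio of 0.76 (interval 0.67 to 0.84) or 1.69-fold. Of the 9 smooth muscle and mural markers, 3 were past the mark and higher in replicate 2: Acta2 at 306.11 and 119.31 TPM, Tagln at 31.53 and 18.02 TPM and Cnn1 at 3.84 and 0.94 TPM in replicates 2 and 1. Myh11, the smooth muscle heavy chain, was not, at 10.48 and 8.59 TPM, nor was the mural gene Rgs5, at 104.05 and 106.95 TPM. The list summed to 553.3 TPM in replicate 2 and 335.2 TPM in replicate 1, with none of its genes at 0. Fibroblast markers summed to 3383 TPM in replicate 2 and 2117 TPM in replicate 1. Much of that sum was Col1a1, at 1958 and 1128 TPM in replicates 2 and 1, the only 1 of the list past the mark. The median log2 ratio of the fibroblast list was 0.20, and Pdgfra had -0.06. Endothelial markers summed to 159.1 and 164.1 TPM and macrophage markers to 41.9 and 36.6 TPM in replicates 2 and 1, with none past it. The part of these cells in the value of Myl9 was not tested.

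The kinases went the other way. Mylk2 had 6797 counts in replicate 2 and 8800 in replicate 1, a log2 ratio of -0.74 (interval -0.79 to -0.70), which is 1.67-fold higher in replicate 1. Mylk4 had 4944 counts in replicate 2 and 8430 in replicate 1, a log2 ratio of -1.14 (interval -1.19 to -1.09), which is 2.2-fold higher in replicate 1. Among the 9 fast fibre markers Myh1 and Myh2, which encode fast heavy chains, had log2 ratios of -0.57 and -0.44, the lowest of the list and short of the mark. Others were nearer level, with Myh4 at -0.08 and Tnnc2 at 0.02, and the median of the list was -0.13. The part of fibre makeup in the values of the kinases was not tested.

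**Figure D3:**
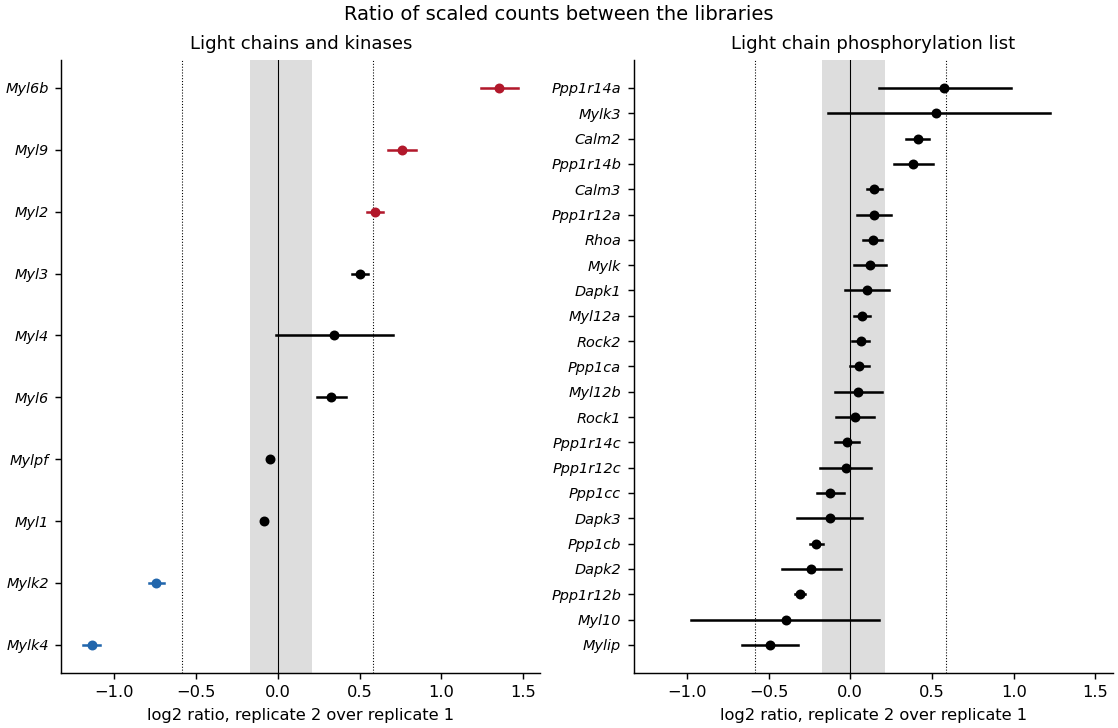
Log2 ratio of scaled counts, replicate 2 over replicate 1 (x), with 95% counting intervals as bars, for the 10 genes (left) and 23 of the 24 counted genes of the light chain phosphorylation list (right). The grey band spans the middle of all 15734 genes tested, from the lower quartile at -0.17 to the upper at 0.21, and dotted lines mark 1.5-fold; 5 of the 10 genes lie outside them, in red where higher in replicate 2 and in blue where higher in replicate 1, and none of the 23 shown does.

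Light chain phosphorylation depends on further genes, and 25 of them were listed: the other chains and kinases, calmodulins, myosin phosphatase subunits and regulators, and other kinases that act on the chains or the phosphatase. None of the 24 with enough counts passed the 1.5-fold mark in either direction, beside 13.6% of all genes and 4.94% of those with a summed count of at least 1000, which 20 of the 24 reached, and their median log2 ratio was 0.05. The nearest was Ppp1r14a, a phosphatase inhibitor, at 5.66 and 3.43 TPM in replicates 2 and 1, or 1.49-fold. Among the other high levels were those of Ppp1cb, the phosphatase catalytic subunit, at 158.71 and 168.0 TPM in replicates 2 and 1, Ppp1ca, another catalytic subunit, at 131.21 and 113.09 TPM and Calm3, a calmodulin gene, at 134.54 and 105.2 TPM. The 4 kinases Mylk2, Mylk4, Mylk and Mylk3 together reached 138.8 TPM in replicate 2 and 226.4 TPM in replicate 1. Myl12b is listed under a second gene ID at 32.92 and 21.58 TPM in replicates 2 and 1, which had 0 counts in the direct quantification, so its level is uncertain.

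The transcripts of each gene were compared by isoform percent, the share of the gene's TPM given to each transcript. For Myl1 the gene tables' quantification placed nearly all of the signal on the transcripts whose starts are printed above. The short Myl1-202 held 67.17% in replicate 2 and 68.25% in replicate 1, and the long Myl1-201 held 31.16% in replicate 2 and 29.96% in replicate 1, a mean of 30.6 ± 0.85% (SD, n = 2). The libraries differed by 1.2 points at most. The short transcript was thus the more abundant by TPM. Of expected counts, which grow with length, the long transcript held 38.3% on average.

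The direct quantification divided the same gene otherwise. It gave 21.3% and 26.5% to Myl1-202 and 19.5% and 16.5% to Myl1-201 in replicates 2 and 1. Myl1-207 received 35.4% and 31.5%, and Myl1-206 23.7% and 25.4%, in replicates 2 and 1, where the gene tables gave both under 1%. Myl1-207 starts 283 bases upstream of Myl1-202, has its annotated coding part in later exons, and is tagged in the annotation as lacking support from the organism's own sequence data. Myl1-206 is an incomplete model that starts upstream of Myl1-201, and it has no stretch of 100 bases of its own. Of such stretches, Myl1-202 has 19 of its own among 704, Myl1-201 131 among 983 and Myl1-207 146 among 775. Summed by start region, transcripts from the upstream start held 31.5% in replicate 2 and 30.3% in replicate 1 in the gene tables, and 43.3% and 41.9% in the direct quantification. The internal region, which takes in all other Myl1 transcripts, gave the larger share in both quantifications and both libraries. In the direct quantification this rested on Myl1-207, since Myl1-202 alone held less than the upstream transcripts. Of 2067 distinct stretches of 100 bases in Myl1 transcripts, 92 also occur in the pseudogene Mylf-ps, which had 936 counts in replicate 2 and 871 in replicate 1, few beside the 383258 and 313996 of Myl1.

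**Figure D4:**
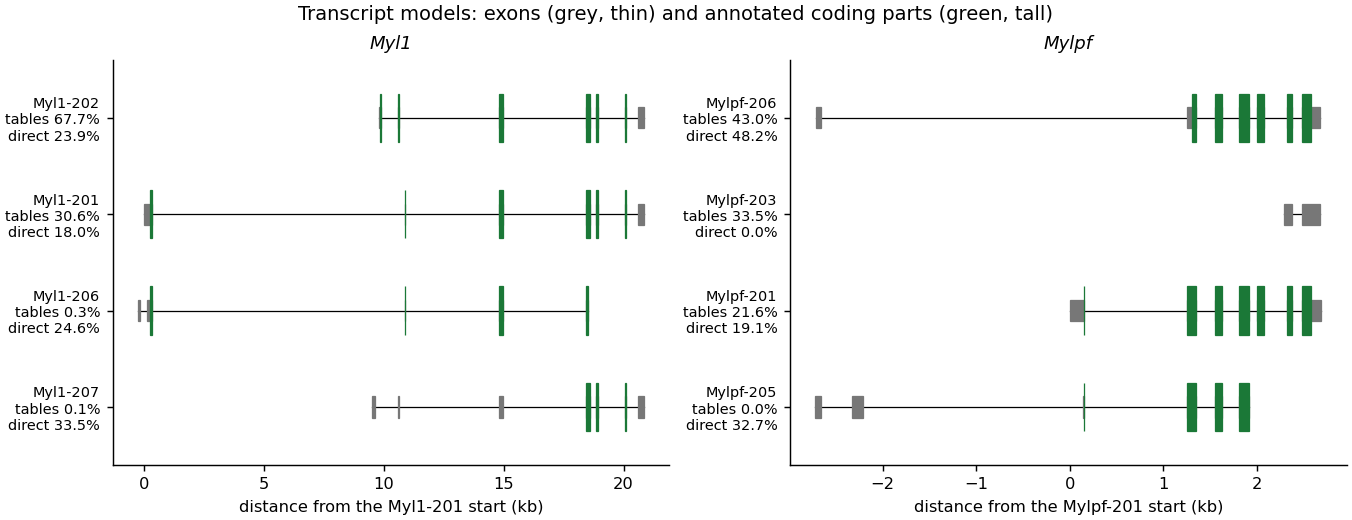
Transcript models of Myl1 (left) and Mylpf (right) by distance in kb from the start of Myl1-201 or Mylpf-201 (x), each drawn with its exons in grey and annotated coding parts in green, an outline making the thinnest visible. Mean shares of the gene's TPM are printed beside each transcript (y): the gene tables put 67.7% on Myl1-202 and 43.0% on Mylpf-206, and the direct quantification 33.5% on Myl1-207 and 48.2% on Mylpf-206.

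For Mylpf, Mylpf-206 led in both quantifications, at 41.9% and 44.1% in the gene tables and 48.3% and 48.2% in the direct quantification, in replicates 2 and 1. Its start lies 2709 bases upstream of Mylpf-201, and its annotated coding part is the shorter of those printed, without the serine codon. Mylpf-201, with the full coding part, held 21.8% and 21.4% in the gene tables and 20.4% and 17.8% in the direct quantification. The remainder was placed differently. The gene tables gave 34.3% and 32.7% to Mylpf-203, a 285-base transcript classed as retained intron, which had 0% in the direct quantification. Most bases of Mylpf-203 lie in the last exons of Mylpf-201. The direct quantification gave 31.3% and 34.0% to Mylpf-205, an incomplete model from the upstream start, which had 0% in the gene tables. Mylpf-205 has 466 bases, and its annotated coding part begins at the start codon of Mylpf-201 and includes the serine codon. In the direct quantification, Mylpf-201 and Mylpf-205, both with that codon, together held the rest of the gene's TPM, slightly more than Mylpf-206. In its counts, not divided by length, Mylpf-206 had more than both together, at 203592 in replicate 2 and 170529 in replicate 1. Mylpf-201 had 117585 and 85723 counts and Mylpf-205 61267 and 56679. Which Mylpf start was the more abundant in coding terms therefore depended on the quantification, on an incomplete model and on division by length.

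The slow chains showed the same division. Myl3-201 held 99.3% in both libraries in the gene tables, against 62.0% and 61.4% in the direct quantification, in replicates 2 and 1, where Myl3-205, an incomplete model tagged as lacking support from the organism's own data, held 33.4% and 32.0%. Myl3-202 held 4.34% and 6.2% there. Myl2-201 held 66.3% and 65.5% in the gene tables and 33.7% and 43.2% in the direct quantification. Myl2-210, a non-coding model that ends at the same base, held 32.5% and 34.0% in the gene tables and 22.3% and 17.0% in the direct quantification, while Myl2-208 and Myl2-209, both incomplete, were near 0% in the gene tables and held 20.2% and 21.5%, and 19.1% and 17.9%, in the direct quantification.

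For Myl6 the transcripts with the tails printed above led in the gene tables, Myl6-201 at 50.1% and 51.6% and Myl6-206 at 38.1% and 34.9% in replicates 2 and 1. In the direct quantification Myl6-201 held 0% and 0.64%, and Myl6-205, which has the same tail and a shorter coding part, held 37.9% and 39.9%. Myl6-206 held 20.5% and 19.7% and the non-coding Myl6-210 27.0% and 23.2% there. Taken over Myl6-201, Myl6-205 and Myl6-206 together, the tail of Myl6-206 made up 43.2% and 40.0% in the gene tables and 35.2% and 32.7% in the direct quantification, so it was the less abundant tail in each. Retained-intron models Myl6-212 and Myl6-207 stayed under 10% in both. Of 4408 stretches of 100 bases in Myl6, 151 also occur in 5 predicted genes, of which Gm5526 had 330 counts in replicate 2 and 184 in replicate 1 and none of the others had over 1 count in the gene tables.

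**Figure D5:**
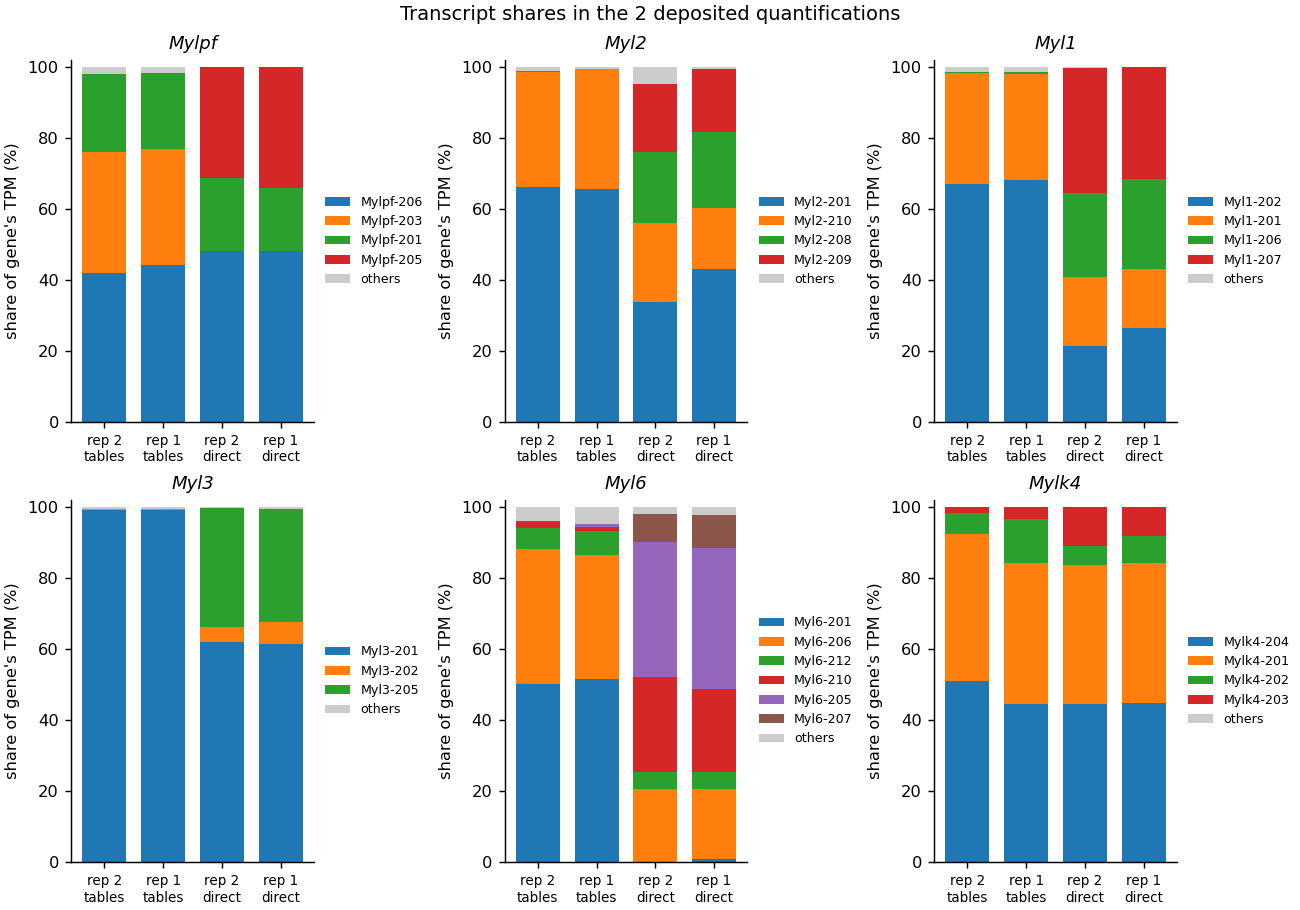
Share of the gene's TPM (y, %) given to each transcript of 6 genes, as stacked bars for replicates 2 and 1 in the gene tables and then in the direct quantification (x), with transcripts under 5% in grey. In the gene tables the libraries differ most for Mylk4-202, by 6.61 points. In the direct quantification Myl2-201 differs by more, at 33.7% and 43.2% in replicates 2 and 1. Myl1-207, Mylpf-205, Myl3-205 and Myl6-205 take 31.3% or more of their gene in the direct quantification and under 1% in the gene tables.

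Mylk2 has 1 transcript. Mylk4-204, an incomplete coding model, held 50.9% in replicate 2 and 44.6% in replicate 1 in the gene tables, and 44.5% and 44.9% in the direct quantification. The complete Mylk4-201 held 41.6% and 39.7% in the gene tables and 39.4% in both libraries in the direct quantification. Mylk4-202, a non-coding model, held 5.88% in replicate 2 and 12.5% in replicate 1 in the gene tables, and Mylk4-203, a retained intron, 11.0% and 8.05% in the direct quantification. Myl6b-201 held 99.6% and 99.5%, and Myl9-201 93.5% and 92.8%, with Myl9-203, non-coding, at 6.08% and 6.78%, in the gene tables. Myl4, the lowest gene, was divided differently by library and by quantification. The retained-intron model Myl4-204 held 51.9% in replicate 2 and 62.7% in replicate 1 in the gene tables, Myl4-202 27.9% and 22.6% and Myl4-203 18.8% and 13.6%. In the direct quantification Myl4-202 held 29.0% in replicate 2 and 0% in replicate 1 and Myl4-203 27.7% and 50.7%. Myl4-201, at 0% in the gene tables, held 15.5% and 20.1% there. By posterior mean isoform percent, another deposited estimate of the gene tables' quantification, Myl4-201 held 10.1% in replicate 2 and 8.27% in replicate 1.

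Of the 64 transcripts of the 9 genes with several transcripts, 20 differed by at least 10 points between the quantifications, beside 23% of 68262 transcripts of all such genes compared. The share among the members, 31.25%, is not far above that background. In the gene tables, Myl4-204 at 10.8 points was the 1 transcript of the 64 that differed as much between the libraries. The share of all transcripts was 11.3%. By posterior mean isoform percent, Myl4-204 held 45.7% in replicate 2 and 52.4% in replicate 1, under 10 points apart. In the direct quantification Myl4-202 and Myl4-203 differed by more than 10 points between the libraries, as given above. The most abundant transcript differed between the quantifications for 3 of these 9 genes, Myl1, Myl4 and Myl6, beside 23.6% of all such genes.

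The level of a gene also moved with the quantification. The gene tables gave a median of 0.746 times the direct TPM over all genes compared. Of the 10 genes, 2 lay over 1.5-fold below that median, Myl2 at 0.374 and Myl6 at 0.463 times the direct TPM, beside 5.07% of 11600 genes. None lay as far above it, beside 2.98%. Myl2 stood at 1702 TPM in replicate 2 and 941.7 TPM in replicate 1 in the direct quantification, so its mean was 1322 ± 537 TPM there and 495 ± 177 TPM in the gene tables (SD, n = 2). Its counts were nearly equal in the 2, at 10398 and 5337 against the 10106 and 5175 of the gene tables in replicates 2 and 1. Length minus effective length, the part of a transcript taken off before counts are divided by length, came to 99 bases for the gene tables and to 343 and 341 bases for replicates 2 and 1 of the direct quantification, and Myl2-201 has 662 bases. Its part in the difference was not tested.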

How the data were processed

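The authors deposited, per library, a gene table and a transcript table of expected counts and TPM made from transcriptome alignments, and a second transcript table of estimated counts and TPM made directly from the reads. Assembly mm10 and GENCODE M21 are named in the notes deposited with the files, and no source used here gives the aligner or quantifiers. The deposited isoform percent is each transcript's share of its gene. A deposited posterior mean TPM, with its bounds (a signal-like value) and a posterior SD of the count, served as checks. That SD was under 1% of the gene's count for each member. It was larger for some single transcripts, at 17.05 for the 55.6 counts of Myl4-202 and 67.07 for the 1237 of Myl6-201 in replicate 2.

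Members, lists, tests and the 1.5-fold mark were chosen with earlier results of these data known. Named genes were all 10 members, transcripts with at least 5% of their gene in either table, the other chains and kinases and the 5 highest of the phosphorylation list, the leading markers of each list, any list gene past 1.5-fold, and neighbours in level; some genes this rule takes are not reported here, and other markers were named after their values were seen. Expected counts were rounded to whole numbers and scaled with TMM in edgeR 4.0.16 (DESeq2 1.42.0 size factors and total counts as alternatives), with a prior count of 0.5 and a summed count of at least 20. With 1 library on each side there are no residual degrees of freedom, so no p-value is given; intervals cover counting error. The ratios and intervals were also run on simulated counts with counting error alone. That is the error the intervals assume, so the run shows nothing of read assignment or of the spread between libraries. The wording set for the long Myl1 transcript, the coding model that starts furthest upstream, picks the incomplete Myl1-206, so the complete Myl1-201 was used in its place. Whether reads from CAST/EiJ alleles were lost against the C57BL/6J annotation was not tested. Depth was 42105856 annotated counts in replicate 2 and 35592003 in replicate 1, and all 55536 gene IDs matched M21. Another 26248 rows named only by a number (0 counts in replicate 2, 1 in replicate 1) were left out; 86 IDs had no row in the direct quantification and count as 0 there. R 4.3.3, Python 3.11.15, pandas 2.3.3, scipy 1.17.1, Biopython 1.88 and matplotlib 3.10.9 were used.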

Additional observations from a re-analysis of the deposited data

How the results depend on the processing

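No paired analysis was possible because there is 1 group of 2 libraries. Of the alternatives planned, the posterior mean TPM kept the light chain shares, the log2 ratios between chains or kinases and the long Myl1 share within 1 SD of their values. With 2 libraries, leaving 1 out gives the value of the other and shows nothing of stability; without replicate 1 and without replicate 2 the Mylpf share was 96.3% and 97.2%, the Myl1 share 96.4% and 97.7%, Mylpf over Myl2 5.52 and 6.13, Myl1 over Myl3 5.48 and 6.07, Mylk2 over Mylk4 0.56 and 0.10, and the long Myl1 share 31.16% and 29.96%. With the direct quantification the Mylpf share was 95.8%, Mylpf over Myl2 was 5.17 and the long Myl1 share 18.0%. Without division by length the Mylpf share was 95.4% and the long Myl1 share 38.3%. With Myl1-206 taken as the long transcript, an alternative chosen after seeing the data, the share was 0.31%. At 2-fold, 2 members passed, Myl6b and Mylk4, beside 4.68% of genes; with total counts 6 did, Myl3 being added, beside 15.5% of genes, and the median of all genes moved to 0.14. DESeq2 size factors and the direct quantification each called the same 5. Direct TPM differed by over 1 SD for 6 of the 10 members. Myl4, with 174 and 106 counts, was limited by depth.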
